A study of Mus musculus with 7 samples.

Results

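The glial cell line-derived neurotrophic factor (GDNF) family and its receptors were followed through 8 genes, taken from the count table by symbol. They were the ligand genes Gdnf, Nrtn (neurturin) and Artn (artemin), the receptor tyrosine kinase gene Ret and the co-receptor genes Gfra1, Gfra2, Gfra3 and Gfra4. All 8 had a row among the 29777 genes of the table. RNA was sequenced from GFP-positive cells sorted out of cervical dorsal root ganglia of ICR mouse embryos at embryonic day 11.5, which the labels call TrkC neurons. There were 3 libraries from Runx3-P2+/- heterozygotes and 4 from Runx3-P2-/- homozygotes, which the labels call knockouts. Both genotypes carry the GFP-expressing Runx3-P2 allele, on which the sort relies, and no library came from embryos without it. The design text speaks of a pool of 4 for each genotype. Whether the libraries came from separate litters is not stated, so the p-values speak only of the spread among libraries, which may be technical.

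Ligands of the family bind a lipid-anchored co-receptor of the Gfra group, and the pair then activates Ret, a transmembrane kinase that signals through the Ras and PI3 kinase routes. Each ligand has a preferred co-receptor: Gdnf binds the Gfra1 product, neurturin that of Gfra2, artemin that of Gfra3 and persephin that of Gfra4. In mouse dorsal root ganglia, Ret with Gfra2 is known from early-born touch receptors, and Gfra3 from neurons that sense pain and temperature. Runx3 is a Runt-family transcription factor of TrkC neurons, and the comparison asks which genes depend on it.

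Total counts ran from 11184237 to 13986835 per library. Levels are given as CPM, the count per library size after TMM scaling. Runx3, the targeted gene, lay between 67.2 and 94.5 CPM in heterozygotes and between 6.49 and 12.1 CPM in homozygotes. By the quasi-likelihood test of edgeR it was at -3.22 ± 0.30 on the log2 scale (SE; adjusted p = 0.00593), homozygote over heterozygote. Ntrk3, which encodes TrkC, was present in every library, at 54.9 to 236 CPM. Among other TrkC neuron markers, Cdh13 lay between 34.1 and 75.6 CPM and overlapped between the genotypes, as did Etv1 and Spp1. Chodl was higher and Pvalb lower in every homozygote than in any heterozygote library. They were at 2.22 ± 0.60 and -2.32 ± 1.35 (SE, adjusted p = 0.156 and 0.540, edgeR), with few Pvalb reads. DESeq2 called Chodl (adjusted p = 0.0113). The 10 pan-sensory markers, led by Tubb3 and Stmn2, summed to 19051 to 22147 CPM in heterozygotes. In homozygotes they summed to 11211 to 19738 CPM, lowest in homozygote library 3. Their median log2 fold change was -0.55, beside -0.0177 over all genes tested. Of the 10, 3 were lower in every homozygote than in any heterozygote library, beside 5.78% of all genes tested. DESeq2 called 3 of them lower, beside 1.31% of all genes. Their member Avil was called lower by edgeR (-2.43 ± 0.33 SE, adjusted p = 0.0493). The 15 leukocyte markers summed to 292 to 350 CPM in heterozygotes and 701 to 4349 CPM in homozygotes, highest in homozygote library 3. Of the 15, 14 were higher in every homozygote than in any heterozygote library, beside 6.6% of all genes tested. None of the 15 was at 0 throughout. Over all libraries, summed levels ran from 1079 to 2147 CPM for neural crest and glia, 64.2 to 445 CPM for mesenchyme and 35.8 to 77.5 CPM for motor neurons. Erythroid markers summed to 0.522 to 106 CPM. Spinal cord markers summed to 16.9 to 57.8 CPM in heterozygotes and 40.8 to 128 CPM in homozygotes. Endothelial markers summed to 4.37 to 8.13 CPM in heterozygotes and 6.61 to 48.4 CPM in homozygotes. In RNA from sorted pools, fewer cells of a type and less RNA per cell cannot be told apart.

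Of the 8 genes, 3 had enough reads to be tested: Gfra2, Gfra3 and Ret. Gfra2 was higher and Gfra3 lower in every homozygote library than in any heterozygote library. Gfra2 gave fewer reads than Gfra3 in each heterozygote library and more in each homozygote library, while per kilobase the homozygote levels of the 2 genes overlapped. Neither difference passed the threshold over all genes by edgeR, while both did by DESeq2. Ret ranged from 0 to 26.5 CPM among the homozygotes, which enclosed all heterozygote values. Gfra4, Nrtn and Artn had at most 7 reads in any library and Gdnf at most 26, and Gfra1 was listed at 0 throughout.

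Per kilobase of exon (exon union in GENCODE M21, an annotation other than the authors'), the heterozygote levels ran in the order Gfra3, Gfra2, Ret, Gdnf. The Gfra3 level was 108 ± 18.8 CPM per kb (SD, n = 3), against 15.3 ± 3.47 CPM per kb for Gfra2 and 1.47 ± 0.942 CPM per kb for Ret (SD, n = 3). None of these 3 ranges overlapped its neighbour, and Ret stayed above the 0 to 0.426 CPM per kb of Gdnf. In the homozygotes the first 2 levels met: Gfra3 was at 41.7 ± 14.7 and Gfra2 at 40.1 ± 16 CPM per kb (SD, n = 4). Gfra3 had the higher level per kb in homozygote libraries 1 and 3, and Gfra2 in libraries 2 and 4.

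Gfra2, which encodes the neurturin co-receptor, stood at 46.5, 47.9 and 68.4 CPM in the heterozygotes and at 133, 151, 73.1 and 211 CPM in the homozygotes. The groups did not overlap, but homozygote library 3 lay close above heterozygote library 3. The means were 54.3 ± 12.3 CPM and 142 ± 56.8 CPM (SD, n = 3 and 4), on 554 to 2489 counts per library. The log2 fold change was 1.39 ± 0.33 (SE), with an unadjusted p of 0.00175 and an adjusted p of 0.132 (edgeR). DESeq2 placed it past the threshold at 1.4 ± 0.32 (adjusted p = 0.00111).

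Gfra3, which encodes the artemin co-receptor, went the other way. It stood at 208, 183 and 257 CPM in the heterozygotes and at 98.6, 75.6, 45.9 and 113 CPM in the homozygotes. All 4 homozygote libraries lay below all 3 heterozygote libraries, and library 3 was again the lowest of its group. The means were 216 ± 37.5 CPM and 83.3 ± 29.4 CPM (SD, n = 3 and 4), on 573 to 2955 counts per library. The log2 fold change was -1.38 ± 0.28 (SE), with an unadjusted p of 0.000615 and an adjusted p of 0.0974 (edgeR). With DESeq2 it was -1.36 ± 0.29 (adjusted p = 0.000308).

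**Figure D1:**
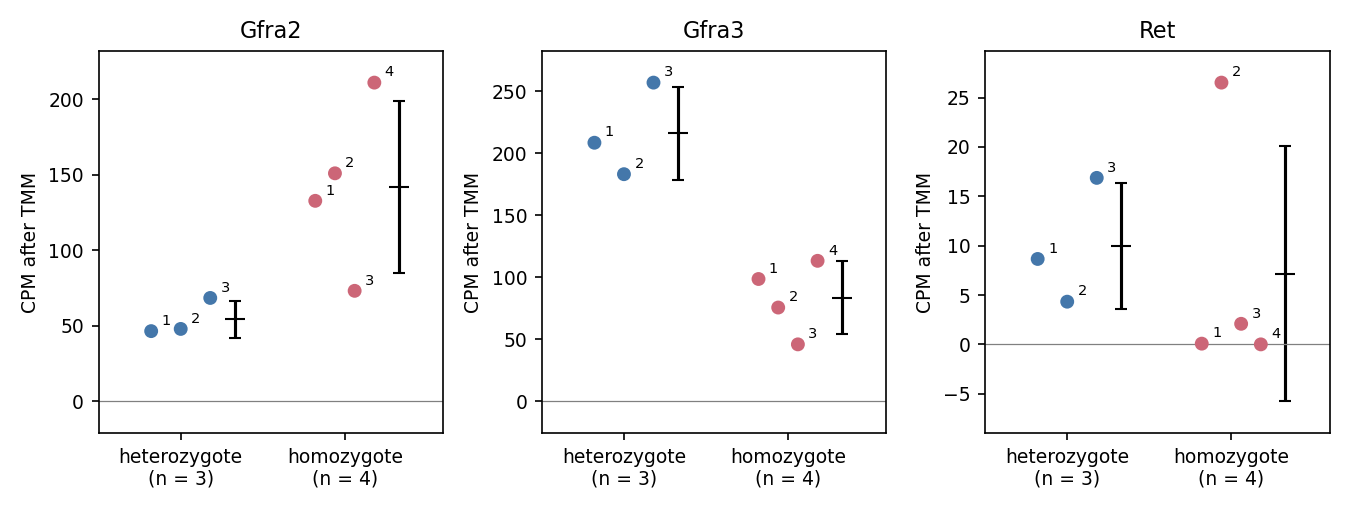
CPM after TMM scaling for Gfra2, Gfra3 and Ret in each library; points are libraries, numbered within their genotype, and bars show mean ± SD (n = 3 heterozygotes, n = 4 homozygotes). Gfra2 and Gfra3 separate the genotypes in opposite directions, while Ret spans 0 to 26.5 CPM in the homozygotes; the SD bar of Ret reaches below 0 because library 2 stands apart.

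Against the whole table, edgeR called 7 of 14040 genes (0.0499%) and none of the 3 members tested; 2 of the 3 had an unadjusted p below 0.05, as did 12.6% of all genes. DESeq2 called 668 genes (4.76%), 3.45% higher and 1.31% lower in homozygotes, with Gfra2 among the higher and Gfra3 among the lower genes. Neither was called by limma-voom or by edgeR with the adjusted quasi-dispersion, which called 0.434% of genes. Without overlap between genotypes, 6.6% of all genes were higher and 5.78% lower in the homozygotes. The authors' deposited table, with 4.69% of its genes below an adjusted p of 0.05, gave adjusted p-values of 0.00261 for Gfra2 and 0.000784 for Gfra3, with log2 fold changes of 1.30 and -1.28 as homozygote over heterozygote. Both were among the 464 genes of the authors' deposited table of changes of at least 2-fold.

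The fold changes of both co-receptors depended on the libraries used. Without homozygote library 3, which was richest in leukocyte markers, both moved upward. Gfra2 was then at 1.61 ± 0.24 (SE, adjusted p = 0.0458, edgeR), past the threshold. Gfra3 was at -1.17 ± 0.21 (SE, adjusted p = 0.0676, edgeR), a smaller change. That fit called 27 genes in all, against 7 with every library. With the leukocyte marker mean as a covariate, the log2 fold change was 2.26 ± 0.44 for Gfra2 and -0.61 ± 0.36 for Gfra3 (SE; adjusted p = 0.806 and 0.997, edgeR). That covariate differed between the genotypes, so it also takes up part of any genotype difference. The labels carry dates, whose meaning is not stated, and no homozygote library was dated between the first and the last heterozygote library, so there is no value within 1 date range. With the date as a covariate, Gfra2 was at 1.42 ± 0.35 and Gfra3 at -1.32 ± 0.28 (SE; adjusted p = 0.146 and 0.109, edgeR). Without homozygote libraries 1 and 3, the earliest and the latest, they were at 1.74 ± 0.25 and -1.19 ± 0.25 (SE; adjusted p = 0.0756 and 0.142, edgeR); both homozygote libraries left were dated after every heterozygote library. Scaling on the pan-sensory markers other than Avil, chosen after seeing the data, moved the median of all genes to 0.31; relative to it Gfra2 was at 1.31 and Gfra3 at -1.44.

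A ratio within a library does not depend on library size. There were 0.223, 0.262 and 0.266 Gfra2 counts per Gfra3 count in the heterozygotes. In the homozygotes there were 1.35, 2.0, 1.59 and 1.86. Gfra3 thus gave more reads than Gfra2 in all 3 heterozygote libraries and fewer in all 4 homozygote libraries, library 3 included. On the log2 scale, with 1 count added to each gene, the ratio was -2.0 ± 0.14 in the heterozygotes and 0.75 ± 0.25 in the homozygotes (SD, n = 3 and 4). The difference of 2.75 corresponds to a 6.73-fold shift. No test is given, since the pair was chosen with earlier results known. The ratio shows unequal change and not which of the 2 genes moved.

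**Figure D2:**
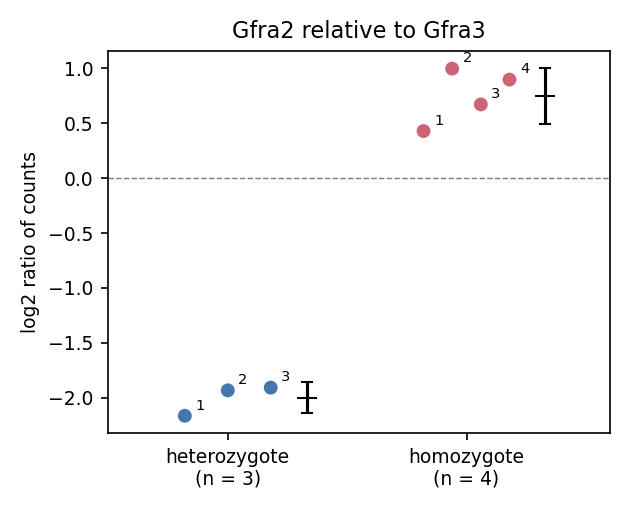
Log2 ratio of Gfra2 to Gfra3 counts in each library, with 1 count added to each gene; points are libraries and bars show mean ± SD (n = 3 and 4). Heterozygote libraries lie between -2.16 and -1.91 and homozygote libraries between 0.43 and 1.0, with the dashed line marking equal counts.

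Sequence shared between the transcripts was counted as a check on the reads. Of 50-base words, the read length in the labels, from GENCODE M21 transcripts, none of Gfra3 or Ret occurred in a transcript of another gene. For Gfra2, 1.34% did, none of them in another member of the family.

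Ret, the signalling receptor shared by the family, was read 111, 50 and 194 times in heterozygotes and 1, 341, 26 and 0 times in homozygotes. These were 8.65, 4.32 and 16.9 CPM against 0.0729, 26.5, 2.08 and 0 CPM. Homozygote library 2 held the highest level of all 7 libraries, while libraries 1 and 4 together held 1 read. On the log2 scale the genotypes differed by -0.47 ± 1.46 (SE; edgeR, adjusted p = 0.947). The value moved with the libraries used, and 1 of the 7 fits that left out a library changed its sign. Leaving out homozygote library 2 gave -3.77 ± 1.31 (edgeR, adjusted p = 0.288), and leaving out heterozygote library 3 gave 0.16 ± 1.75 (edgeR, adjusted p = 0.994). With limma-voom it was -3.57 ± 1.52 (adjusted p = 0.399).

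An autonomic neuron gene was also highest in homozygote library 2. Dbh, which makes noradrenaline, was at 4.90 CPM in library 2 and at 0 in the other 3 homozygote libraries. In the heterozygotes, where Ret was also present, Dbh reached 0.174 CPM at most. This gene was picked after its values were seen from a list of 9 autonomic and enteric markers, which summed to 74.5 to 249 CPM in heterozygotes and 113 to 196 CPM in homozygotes. Th, an enzyme of dopamine synthesis, gave 55.4 to 248 CPM of that sum, and Gata2, a GATA factor, at most 34.3 CPM; Hand2, a defining autonomic factor, had reads only in homozygote library 3, at 0.0801 CPM. Homozygote library 2 also stood apart in the 8 muscle markers, which summed to 250 CPM there and to 7.35 to 25.8 CPM elsewhere. Actc1 led in that library at 114 CPM, before Myog at 41.6 and Acta1 at 40.3 CPM. The part of the autonomic and muscle markers in the level of Ret was not tested.

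**Figure D3:**
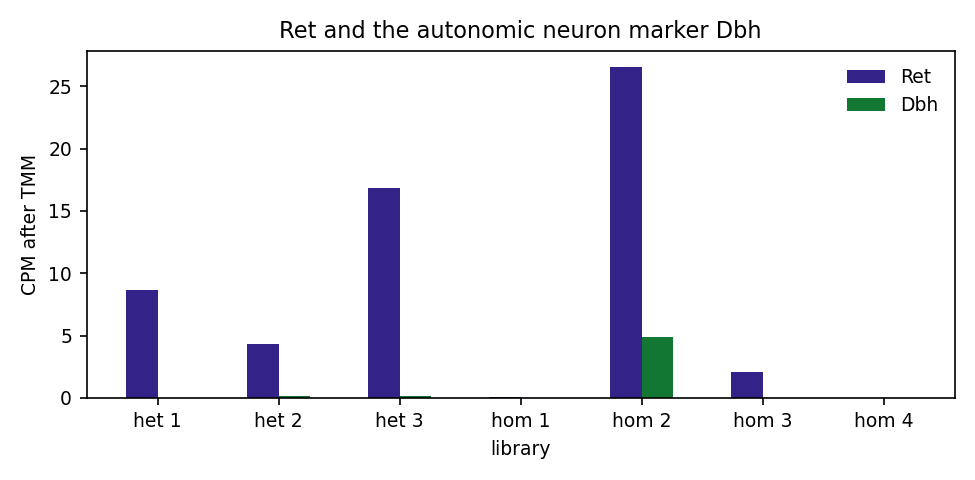
CPM after TMM scaling of Ret and Dbh in each of the 3 heterozygote (het) and 4 homozygote (hom) libraries, 1 bar per gene and library. In homozygote library 2 both genes are at their highest, whereas the heterozygote libraries hold Ret at 4.32 to 16.9 CPM with at most 0.174 CPM of Dbh.

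Gfra1, which encodes the GDNF co-receptor, had 0 counts in each of the 7 libraries, where a count of 0 allows up to 3 counts, or 0.219 to 0.261 CPM. The table holds a further row for this receptor, named GDNFR-alpha, which was also at 0 in all libraries. Such a 0 was not read as absence of the transcript. Srsf3, a general splicing factor that every cell uses, also had 0 counts while a row under its older symbol had 3108. The sources used here do not say how reads lying under more than 1 row were counted. In GENCODE M21, Gfra1 also overlaps the opposite-strand gene Gm16277.

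Gfra4, the persephin co-receptor gene, had 7 counts in heterozygote library 1 and none in the other 2 heterozygotes, and 0, 2, 0 and 1 in the homozygotes. The totals of 7 counts (95% exact Poisson interval 2.81 to 14.4) and 3 counts (0.619 to 8.77) had overlapping intervals, which cover counting error only. A difference in Gfra4 was not detectable at this depth.

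The ligand genes were sparse in both genotypes. Gdnf was read 0, 8 and 18 times in heterozygotes and 26, 2, 0 and 1 times in homozygotes, so each genotype had both a library at 0 and a library at 18 or more. Its totals of 26 (95% exact Poisson interval 17 to 38.1) and 29 counts (19.4 to 41.6) had overlapping intervals, and homozygote library 1, the highest at 1.90 CPM, was the library with 1 Ret read. Artn had 0, 0 and 1 counts against 0, 3, 3 and 0. Nrtn was read once in each of heterozygote libraries 1 and 2 and nowhere else. The persephin gene Pspn, outside the 8, had 3, 6 and 1 counts against 2, 12, 4 and 12. None of these genes was tested, since too few libraries held the 10 counts that the filter asks for.

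For each member tested, the 3 genes with the most similar pattern were found among 11281 genes with a mean log2 CPM of at least 1. Likeness was the root mean square difference in centred log2 CPM over the 7 libraries, so smaller means more alike. For Gfra3, whose own spread was 0.815 log2 units, the nearest were P4ha2, a collagen prolyl hydroxylase subunit, at 0.176, Micall1, a protein of endosomal recycling, at 0.182, and Pirt, a regulator of TRP channels in sensory neurons, at 0.217. Pirt stood at 259, 189 and 349 CPM in the heterozygotes and at 129, 67, 59.3 and 115 CPM in the homozygotes. For Gfra2, with a spread of 0.788, they were Nfkbie, an inhibitor of NF-kappaB, at 0.248, AK043844 at 0.324 and Sh3gl2, an endophilin of vesicle recycling, at 0.326. Ret had no close match: its spread was 2.68, and the nearest gene, Ccdc68, was 1.26 away, before Gas6 at 1.51 and Camk1d at 1.53. None of these 9 genes was called by edgeR (smallest adjusted p = 0.0634, P4ha2). With the adjusted quasi-dispersion edgeR called P4ha2 (adjusted p = 0.0404), beside 0.434% of all genes. DESeq2 called P4ha2, Pirt and AK043844 (adjusted p = 3.3e-05, 0.000163 and 0.0219), beside 4.76% of all genes. Genes picked for likeness to Gfra2 or Gfra3 over these same libraries tend to share their genotype difference, so these calls add no support.

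The rest of the pathway was read from 70 further genes in 3 lists, of which 60 were tested. edgeR called none of the 60; 5 had an unadjusted p below 0.05 and a higher level in homozygotes, and 6 a lower one, against 12.6% of all genes in either direction. The median log2 fold change was -0.13, beside -0.0177 over all genes tested. DESeq2 called 3 higher (Dok2, Plcg2 and Dusp6) and 1 lower (Shc4), beside 3.45% and 1.31% of all genes.

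Among 5 tested genes of the other ligands and receptors, none was called. Sdc3, a heparan sulfate proteoglycan that binds GDNF, was at -0.76 ± 0.33 and Gas1, a Ret-binding relative of the Gfra proteins, at 1.17 ± 0.52 (log2 fold change ± SE; adjusted p = 0.374 and 0.392, edgeR). Sorl1, a sorting receptor known to bind GDNF, was at 1.14 ± 0.66 (adjusted p = 0.543, edgeR). Ncam1, through which GDNF can signal without Ret, lay between 1513 and 2502 CPM; it was picked after its values were seen.

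Among 42 tested adaptors and effectors of Ret, none was called by edgeR, with a median log2 fold change of -0.15. Shc4, an Shc-family adaptor, stood at 23.7, 23.6 and 28.3 CPM in the heterozygotes and at 15.3, 8.63, 12.6 and 9.16 CPM in the homozygotes, without overlap. The log2 difference was -1.14 ± 0.30 (SE; edgeR, adjusted p = 0.155). Dok2, a docking protein, and Plcg2, a phospholipase C, were highest in homozygote library 3, at 49.6 and 43.7 CPM, and between 2.26 and 13.2 CPM in the other homozygotes. In the heterozygotes both lay at 2.08 CPM or less. These 2 genes are also known from leukocytes, whose markers peaked in the same library; that part was not tested.

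The 13 tested feedback and target genes had a median of 0.21, and none was called by edgeR. Dusp6, a phosphatase of the ERK route, stood at 64.2, 40.6 and 52.5 CPM in the heterozygotes and at 92.8, 84.2, 157 and 136 CPM in the homozygotes (log2 fold change 1.16 ± 0.27 SE; adjusted p = 0.128, edgeR). Etv4, an ETS factor downstream of Ret in limb motor neurons and kidney, went the other way, at 23.6, 34.9 and 49.3 CPM against 17.3, 18.2, 8.09 and 19.9 CPM (-1.18 ± 0.37 SE; adjusted p = 0.206, edgeR). Neither gene overlapped between the genotypes. Spry4, a feedback inhibitor of receptor kinases, was at -0.63 ± 0.34 (adjusted p = 0.505, edgeR).

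**Figure D4:**
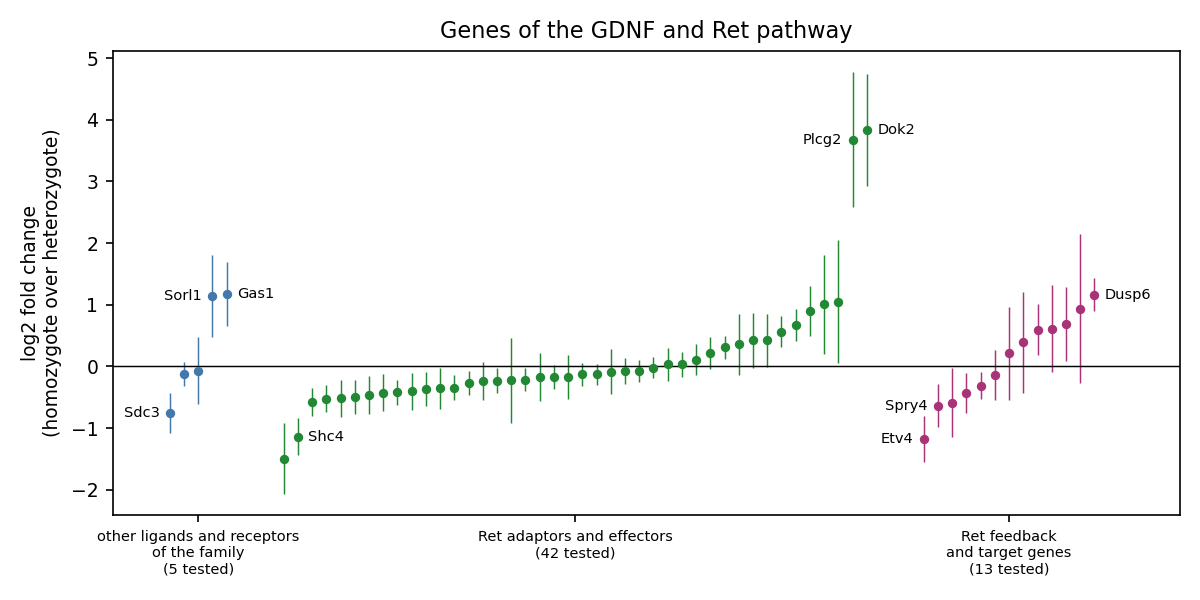
Log2 fold change (homozygote over heterozygote) with its SE for the 60 tested genes of 3 lists of the GDNF and Ret pathway, ordered within each list and named where the text gives values. Most lie near 0, with Dok2 at 3.83 and Plcg2 at 3.68 apart from the rest; none was called by edgeR.

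Neuron types that are known to use these co-receptors were read from 2 more lists. Of 8 tested genes of early Ret touch receptors none was called by edgeR, and the median log2 fold change was 0.92. At an unadjusted p below 0.05, 3 were higher and 1 lower, beside 12.6% of all genes in either direction. DESeq2 called 2 of the 8 higher, beside 3.45% of all genes. With the adjusted quasi-dispersion edgeR called Ntrk2 (adjusted p = 0.0283), beside 0.434% of all genes. Maf, Shox2 and Cux2 overlapped between the genotypes, at 0.54 ± 0.36, -0.24 ± 0.27 and -0.09 ± 0.44 (SE, adjusted p = 0.600, 0.806 and 0.965, edgeR). Ntrk2 (TrkB) was at 2.33 ± 0.38 and Necab2, a calcium-binding protein, at -1.02 ± 0.40 (SE; adjusted p = 0.0626 and 0.319, edgeR). Mafa, a factor of early Ret touch receptors, was listed at 0 in all 7 libraries.

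Of 9 tested genes of Gfra3 nociceptors none was called by edgeR, 5 were lower at an unadjusted p below 0.05 and none higher, beside 12.6% of all genes in either direction, and the median was -0.76. DESeq2 called 4 of them lower, beside 1.31% of all genes. With the adjusted quasi-dispersion edgeR called Prdm12, Calca and Calcb (adjusted p = 0.0411, 0.0435 and 0.0315). Prdm12, a nociceptor transcription factor, was at -1.59 ± 0.27, and the CGRP peptide genes Calca and Calcb were at -3.82 ± 0.77 and -3.68 ± 0.81 (SE; adjusted p = 0.0634, 0.0971 and 0.126, edgeR). Reads may be shared between Calca and Calcb, which are near-copies. The 2 lists stand beside a median of -0.0177 over all genes tested.

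**Figure D5:**
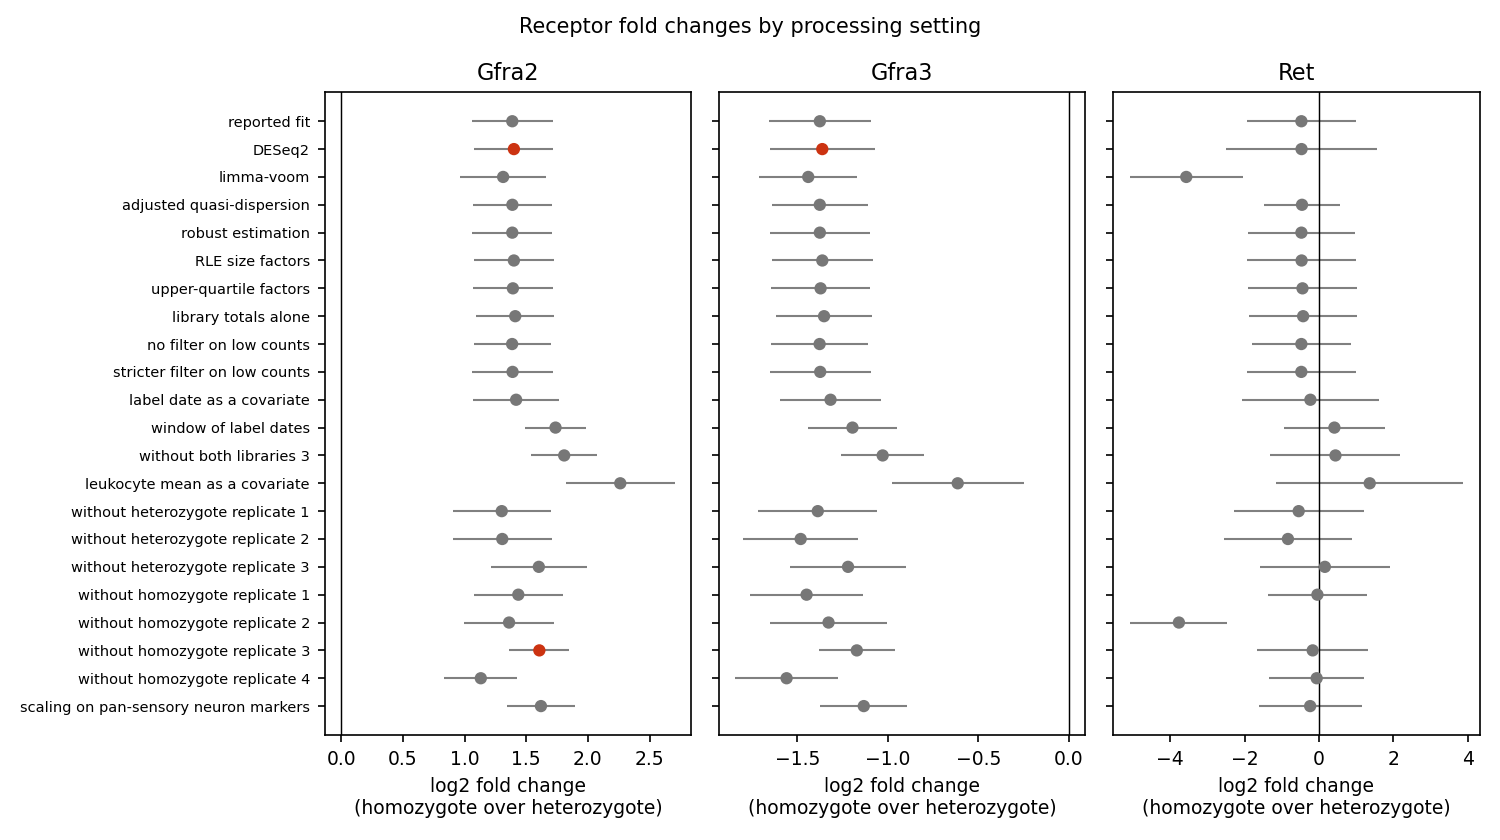
Log2 fold change (homozygote over heterozygote) with its SE for Gfra2, Gfra3 and Ret under the reported fit and 21 alternative settings (the window of label dates leaves out homozygote libraries 1 and 3); red points have an adjusted p below 0.05. Gfra2 stays above 0 and Gfra3 below 0 in each, while Ret lies from -3.77 to 1.37 with no call.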

How the data were processed

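The authors deposited raw counts for each gene in each of 7 libraries. Per the submitters' processing notes, which give no roles, the tools were DESeq2 1.2.8, HTSeq and TopHat 1.4.0, and the build was mm9; neither the annotation nor a strand setting is given. The labels' protocols describe amplified cDNA read as single 50-base reads. The authors also deposited a normalized signal (count over 1 factor per library, not used in any test), log2 fold changes, and p-values, both quoted with the sign as homozygote over heterozygote.

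Genes were filtered with filterByExpr (minimum count 10, minimum total 15; 14040 kept), scaled by TMM and compared with edgeR 4.0.16's quasi-likelihood test (R 4.3.3, two-sided, Benjamini-Hochberg over all genes kept; called below 0.05). SE is the log2 fold change over the square root of F. DESeq2 1.42.0 (adjusted p given as NA left out) and limma 3.58.1 were alternatives. Between replicates of a genotype, counts differed beyond sampling noise, with chi-square over its degrees of freedom at 29.1 to 72.0. The fits were tested on simulated counts.

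Named genes were all 8 members, called genes, the 3 smallest p in each pathway or neuron list, the 2 most abundant markers of a cell type, and the nearest patterns. Some further list members, such as Chodl, Pvalb, Maf, Shox2 and Cux2, were named after their values were seen. The members and lists were chosen with earlier results of these data known. Lists covered the pathway, 2 neuron types and 11 cell types: TrkC, pan-sensory, motor and autonomic neurons, glia, leukocytes, mesenchyme, endothelium, erythroid cells, spinal cord and muscle. Column names matched the source names; heterozygote library 1 has month 1 in its title and month 11 there, and month 11 was used. Some genes that this rule names are not reported here. No coordinates are given, because the reference has another build.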

Additional observations from a re-analysis of the deposited data

Results flagged for a closer look

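Ret in homozygote library 2, at 26.5 CPM, stood apart from the other homozygote libraries, which lay between 0 and 2.08 CPM. The gap to the nearest library was 0.921 of the group's range, above the 95% critical value of Dixon's test for 4 samples. Gdnf in homozygote library 1, at 1.90 CPM on 26 counts, stood apart in the same way, with a gap of 0.918 of the range and the other homozygotes at 0.156 CPM or less. For normally distributed values, about 1 group in 20 passes this value by chance. These CPM came from uneven and partly sparse counts, so the rate here is not known. Each member with reads in the homozygotes, and the ratio of Gfra2 to Gfra3, was screened in this way.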

How the results depend on the processing

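Gfra2 kept its direction under all 21 alternatives (log2 fold change 1.13 to 2.26, adjusted p 0.00111 to 0.806), as did Gfra3 (-1.56 to -0.61, adjusted p 0.000308 to 0.997). Calls appeared with DESeq2, at 1.4 for Gfra2 and -1.36 for Gfra3, where 2 members, 4 pathway genes and 668 genes in all were called. Leaving out 1 library gave 1.13 to 1.61 for Gfra2, -1.56 to -1.17 for Gfra3 and -3.77 to 0.16 for Ret. In these fits 0 to 1 members and 1 to 27 genes were called. Ret, never called, turned positive without homozygote libraries 1 and 3, the earliest and latest by label date (0.42), without both libraries 3 (0.45), with the leukocyte covariate (1.37) and without heterozygote library 3 (0.16). The number of genes called was 61 with the adjusted quasi-dispersion, 80 with no filter on low counts, 3 with the label date as a covariate, 12 without both libraries 3, 0 with the leukocyte covariate and 4 with scaling on pan-sensory markers. The cause was not tested. The ratio of Gfra2 to Gfra3 moved by less than the spread between libraries (2.67 to 2.95) in all its 10 alternatives. No paired analysis was possible because the labels give no replicate numbers that link libraries of the 2 genotypes. For Gfra1, Gfra4 and the ligand genes the depth, and for Gfra1 the counting, sets what can be said.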
